A study of Mus musculus with 10 samples.

Results

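Adgrg1 and 6 related adhesion G protein-coupled receptor (GPCR) genes were followed through 10 RNA-seq libraries of mouse MLL-AF9 leukemia cells. The 7 genes, among them Adgrg1, Adgrg3, Adgre1, Adgre5, Adgrl2 and Adgrl4, were found by symbol among the 52550 genes of the count table. They were chosen by measured values of these libraries, Adgrg1 for its higher level in DOX-treated MLL-AF9-i139 clones and the others as its relatives on myeloid cells, so their values in that contrast are given as a description without a test. A gene counted as measured with at least 10 counts in total. Of the 7 genes, 6 passed, and Adgrl4 lay just below the minimum (8 counts over 10 libraries).

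Adhesion GPCRs carry a long extracellular part that cleaves itself next to the membrane, and the stalk left behind can act as a tethered agonist of the receptor. Adgrg1 (GPR56) binds collagen III and transglutaminase 2, sits in complexes with the tetraspanins CD9 and CD81, and signals through G12 and G13 proteins. In blood it is known as a surface marker of hematopoietic and leukemia stem cells, and of cytotoxic lymphocytes. Adgrg3 (GPR97) is a receptor of granulocytes, Adgre1 (F4/80) the classical macrophage marker of the mouse, and Adgre5 (CD97) a leukocyte receptor that binds CD55.

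The cells were hematopoietic stem and progenitor cells (HSPCs) from the bone marrow of C57BL/6 mice aged 8 to 20 weeks, transformed by a retrovirus for the MLL-AF9 fusion, grown in SCF, GM-CSF, IL-6 and IL-3, and transduced with the tetracycline repressor fused to KRAB (tetR-KRAB). All groups share these steps. MLL-AF9-i139 cells carry in addition a lentiviral miR-139 construct that is switched on by doxycycline (DOX), and 3 clones, each grown from a picked colony, were sequenced with DOX at 5 µg/mL and without. DOX was given for 48 h to clones 1 and 2 and for 72 h to clone 3, and no time is given for the untreated cultures. MLL-AF9-ieGFP cells express eGFP from the same kind of construct. They are 1 clone, sequenced at 48 h and at 72 h, each time both untreated and DOX-treated, so their libraries are time points and their spread may be smaller than that between clones. In clone 3, a longer treatment and the clone itself cannot be told apart.

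Total counts ranged from 35133308 to 47089725 per library, so that 3 counts stand for 0.0637 to 0.0854 CPM, the count scaled to the library total. The DOX-treated library of clone 3 stood apart from those of clones 1 and 2 (chi-square per degree of freedom, taken over genes, of 112 and 96.9, against 13.5 to 38.7 between the other libraries of a group). The Mir139 hairpin had 0 counts in each library, which says nothing of its induction in ribosomal RNA-depleted long RNA. The labelled cell type was checked against 10 myeloid progenitor markers: 9 were measured, and their summed level was 3262 to 4913 CPM in untreated and 4676 to 7157 CPM in DOX-treated MLL-AF9-i139 clones, and 3404 to 5343 CPM in MLL-AF9-ieGFP. In MLL-AF9-i139 0 of the 9 passed without the clone as a block (edgeR, 5 at an unadjusted p under 0.05, and 3 with DESeq2), and 4 passed with it, where 12.4% of all genes did. These were the granule genes Mpo (log2 fold change 1.40) and Ctsg (0.63) and the Fc receptor gene Fcgr3 (1.37), which were higher, and Hoxa9 (-0.35), which was lower (adjusted p = 0.0095, 0.0179, 0.0332 and 0.0428 with the block, edgeR). Elane and Prtn3, granule genes of the same list, had log2 fold changes of 0.07 and -0.34 (edgeR). In MLL-AF9-ieGFP those of Mpo, Ctsg, Fcgr3 and Hoxa9 with DOX were 0.49, 0.23, -0.05 and -0.02 (edgeR). The part of these markers in the levels of Adgrg1 and Adgrg3 was not tested. The exception, Itgam, had at most 3 counts, and 99.9% of its body lies inside another annotated gene. Markers of B cells (0.787 to 1.62 CPM summed over 5 genes), erythroid cells (1.69 to 2.69 CPM over 6 genes) and endothelial cells (0.347 to 0.982 CPM over 6 genes) were near 0 in each library.

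The miRNA of the construct and its matches in the receptor genes are shown first, since it is what DOX switches on. The mature strands come from RefSeq (GRCm38.p6, chromosome 7, positions 101475382 to 101475403 and 101475418 to 101475439, plus strand). Capitals mark the seed, bases 2 to 8, and the strands do not share one.
mmu-miR-139-5p: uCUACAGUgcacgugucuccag
mmu-miR-139-3p: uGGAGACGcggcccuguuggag

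In the longest annotated 3′ UTR of each gene, a match of 7 bases to the seed of miR-139-5p (ACTGTAG) was found once in Adgrg1, once in Adgrl2 and once in Adgrl4, and not in Adgrg3, Adgre1 or Adgre5. Of 21037 genes with a 3′ UTR, 10.99% hold such a match. The seed match of miR-139-3p (CGTCTCC), found in 3.16% of these genes, occurred once, in Adgrl2. The sites in Adgrg1 and Adgrl2, which were measured, are printed as 23 bases of the transcript with the match in capitals. The Adgrg1 site lies on chromosome 8 (chr8:95014115-95014137, plus strand), and the Adgrl2 sites on chromosome 3 (chr3:148816323-148816345 and chr3:148817493-148817515, minus strand).
Adgrg1, miR-139-5p: tagagagtctggaaACTGTAGgc
Adgrl2, miR-139-5p: gttgttgatttcccACTGTAGac
Adgrl2, miR-139-3p: gcaacagacagctaCGTCTCCca
A match is a description of the sequence and not a measured site.

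Adgrg1 (ENSMUSG00000031785) lies on chromosome 8 of GRCm38 (94974751 to 95014217, plus strand), and no other annotated gene overlaps it. Without DOX it had 4.09, 4.80 and 4.61 CPM in MLL-AF9-i139 clones 1, 2 and 3 (199, 210 and 182 counts). With DOX it had 107, 116 and 14.98 CPM (5110, 4578 and 590 counts). Each DOX-treated clone lay above each untreated one, and clone 3 lay far below clones 1 and 2. The DOX-treated clones had a mean of 79.3 ± 55.9 CPM, the untreated ones of 4.50 ± 0.368 (SD, n = 3 each), a log2 fold change of 4.16 (standard error, SE, 0.68) without and 3.78 (SE 0.59) with the clone as a block. Clone by clone the level with DOX was 26.1, 24.2 and 3.25 times that without. In a fit without clone 3 the log2 fold change was 4.67, and without clone 1 or clone 2 it was 3.81 and 3.83.

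In MLL-AF9-ieGFP, which the choice of the genes did not use, Adgrg1 had 6.56 and 6.15 CPM without DOX and 6.73 and 6.72 CPM with DOX, at 48 h and 72 h. These 4 libraries lay above the untreated MLL-AF9-i139 clones and below each DOX-treated one. The log2 fold change with DOX was 0.08 (SE 0.66, adjusted p = 1, edgeR's quasi-likelihood test over 20269 genes in 1 fit of 10 libraries). With the 4 libraries of this clone alone it was 0.08 with a SE of 0.16. At 72 h against 48 h the log2 fold change was -0.04 (SE 0.71, adjusted p = 0.9997, edgeR).

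**Figure D1:**
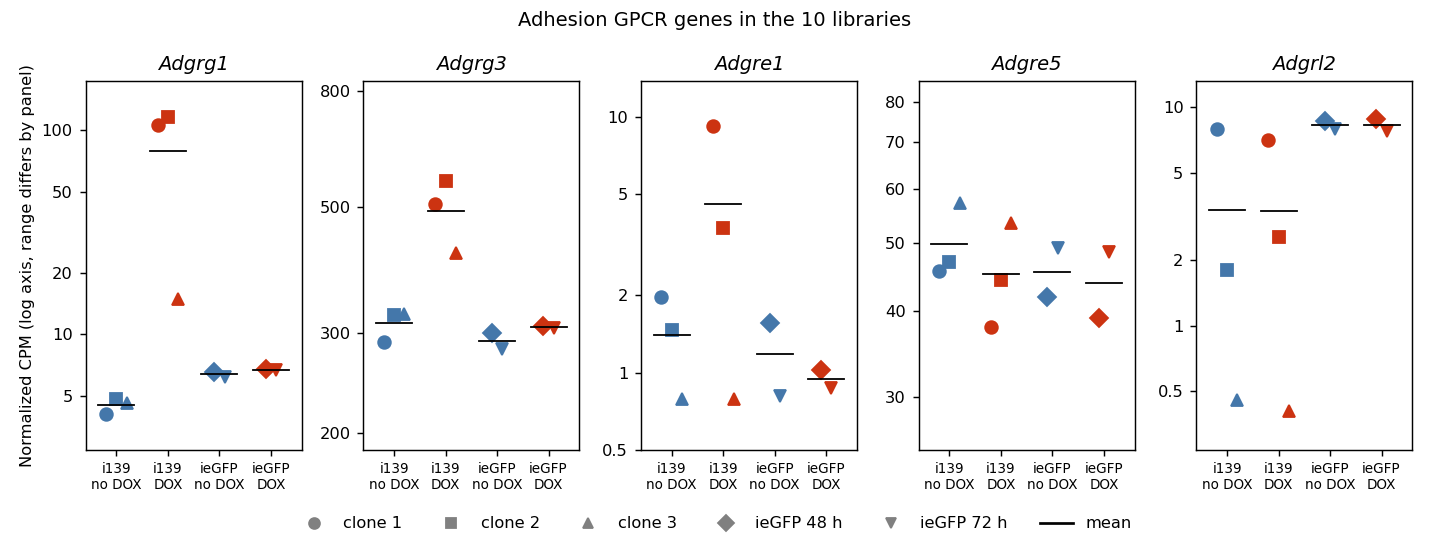
Normalized CPM of 5 adhesion GPCR genes (1 panel each, log axis whose range differs by panel) in MLL-AF9-i139 and MLL-AF9-ieGFP without (blue) and with DOX (red), with 1 symbol per library and a line at the group mean. Adgrg1 and Adgrg3 lie higher in all 3 DOX-treated MLL-AF9-i139 clones, while the Adgrl2 levels follow the clone.

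Adgrg3, the granulocyte receptor, is the next gene on the same strand, from 95017692 to 95045250 on chromosome 8, starting 3.5 kb after the end of Adgrg1. It was the most abundant of the 7 genes by count. Without DOX it had 289, 323 and 324 CPM in clones 1, 2 and 3, and with DOX 505, 554 and 414 CPM. The groups did not overlap, and clone 3 again had the lowest level with DOX. Means were 491 ± 71.1 CPM in DOX-treated and 312 ± 20.0 CPM in untreated clones (SD, n = 3 each), a log2 fold change of 0.67 (SE 0.13), or 0.66 (SE 0.11) with the clone as a block. By clone, the log2 changes were 0.81, 0.78 and 0.36. MLL-AF9-ieGFP had 300.2 and 280.4 CPM without DOX and 309 and 306 with DOX, and the log2 fold change was 0.08 (SE 0.13, adjusted p = 1, edgeR).

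Other granulocyte genes were read beside it. The 9 neutrophil markers, all of them measured, summed to 224, 164 and 130 CPM in clones 1, 2 and 3 without DOX and to 361, 337 and 193 with DOX. In MLL-AF9-ieGFP the sum was 296 and 376 CPM without and 283 and 399 with DOX. Among the 8 markers tested in MLL-AF9-i139, 0 passed without the block (edgeR, 2 at an unadjusted p under 0.05, and 2 with DESeq2), and Cxcr2 and Ngp passed with it (adjusted p = 0.0219 and 0.0109, edgeR), where 12.4% of all genes did. Cxcr2, a chemokine receptor of neutrophils, had 66, 39 and 36 counts without and 1990, 895 and 105 with DOX in clones 1, 2 and 3, clone 3 again being the lowest. The median log2 fold change of the 8 was 0.36. Ngp had a mean of 59.3 CPM without and 149 with DOX. S100a9 was level, with 51.3 and 51.2 CPM (log2 fold change 0.01), and Mmp8, with at most 11 counts in these clones, was lower (-0.82). Cxcr2 and the other markers named here were picked after their values were seen. In bulk RNA, more cells of a type and more RNA per cell cannot be told apart, and the part of such cells in the Adgrg3 level was not tested.

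Groups did not overlap and lay higher with DOX for 2 of the 5 members tested, Adgrg1 and Adgrg3, and for 2267 of 19223 genes (11.8%). For 0 members they lay lower without overlap, which was the case for 2512 genes (13.1%). Over all genes, 12 of 19223 (0.0624%) had an adjusted p under 0.05 without a block (edgeR, 3959 at an unadjusted p under 0.05, and 1556 with DESeq2), and 2381 (12.4%) in the fit with the clone block. The members were selected on this contrast, so no test of theirs is given and nothing is read from the 2 that did not overlap.

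**Figure D2:**
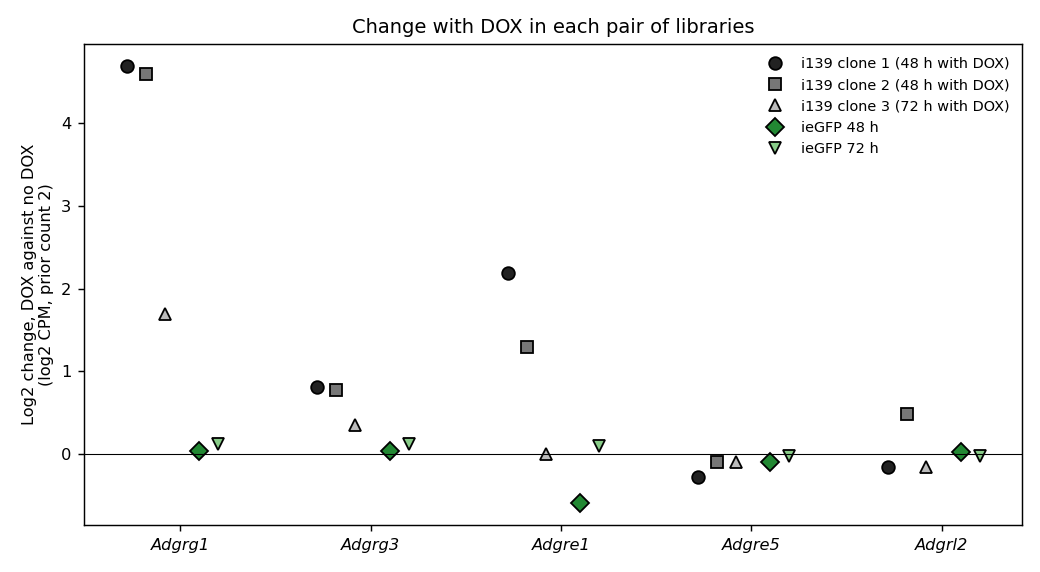
Log2 change in CPM (prior count of 2) between the DOX-treated and the untreated library of each MLL-AF9-i139 clone (dark to light grey) and of each time in MLL-AF9-ieGFP (green), for 5 adhesion GPCR genes. Clone 3, treated for 72 h, has smaller changes of Adgrg1 (1.69), Adgrg3 (0.36) and Adgre1 (0.00) than clones 1 and 2.

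To see whether the whole region differed with DOX, all 21 annotated genes within 250 kb of Adgrg1 were listed. Of these, 6 had 0 counts, 5 of them wholly inside other genes, and 12 that are no members were tested. None of the 12 passed in MLL-AF9-i139 without the block (edgeR, 1 at an unadjusted p under 0.05, and 0 with DESeq2) or with it. In 9 of the 12 the groups overlapped, in 2 they lay higher with DOX and in 1, Polr2c, lower. Over all genes tested, 11.8% lay higher and 13.1% lower without overlap. Gm10286, the closest gene on the other side, 5.0 kb before Adgrg1, had 0.212 ± 0.0539 CPM without and 0.328 ± 0.160 with DOX (SD, n = 3), a log2 fold change of 0.63 (SE 0.45, adjusted p = 0.459, edgeR). Behind Adgrg3, Gm45757 (log2 fold change 0.42, SE 0.21, adjusted p = 0.285) and Drc7 (0.92, SE 0.34, adjusted p = 0.187) were higher in each DOX-treated than in each untreated clone without passing (edgeR). In MLL-AF9-ieGFP, Gm45757 had a similar log2 fold change with DOX, 0.43 (SE 0.24), and Drc7 had 0.23 (SE 0.43, edgeR). The housekeeping genes Ciapin1, Coq9 and Polr2c, 101.2 to 136.4 kb before Adgrg1, had log2 fold changes of -0.26, -0.06 and -0.16 (adjusted p = 0.301, 0.805 and 0.416, edgeR).

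**Figure D3:**
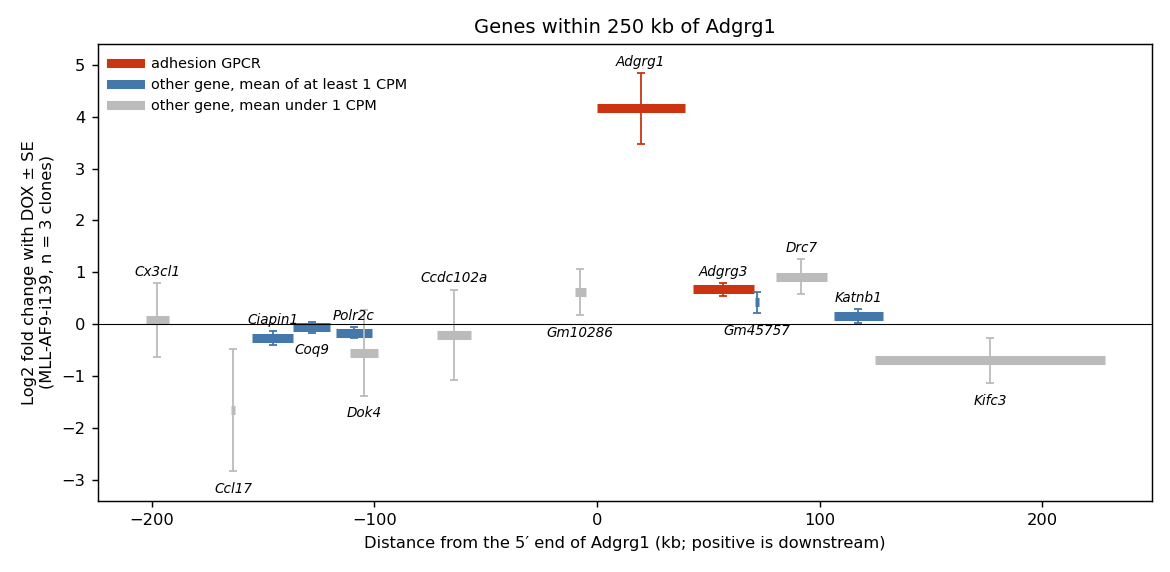
Log2 fold change with DOX in MLL-AF9-i139 (edgeR, ± standard error, n = 3 clones) of the 14 genes within 250 kb that could be fitted, Adgrg1 included, drawn along the distance from the 5′ end of Adgrg1, with bars as long as the gene bodies. Adgrg1 (4.16) stands above all others, and Ccl17 (-1.65), which has under 1 CPM, is the lowest.

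As Adgrg1 and Adgrg3 were both higher in the DOX-treated clones, the 250 bases before their starts are shown. They come from RefSeq (GRCm38.p6, plus strand), which gives Adgrg1 an upstream start (chr8:94976859-94977108) and a downstream one (chr8:94984149-94984398), and Adgrg3 a single start (chr8:95017442-95017691). Promoters were found for 5 of the 7 genes. Motifs of factors that act on stem cell genes were searched on both strands, the GATA motif as AGATAA, the RUNX motif as TGTGGT, the ETS motif as AGGAAG and the E-box as CAGCTG, and no matches overlapped in the windows shown. Over 32851 promoters of the same length they occur in 9.99%, 14.05%, 29.48% and 13.0%. Capitals mark a match.
Adgrg1, upstream start: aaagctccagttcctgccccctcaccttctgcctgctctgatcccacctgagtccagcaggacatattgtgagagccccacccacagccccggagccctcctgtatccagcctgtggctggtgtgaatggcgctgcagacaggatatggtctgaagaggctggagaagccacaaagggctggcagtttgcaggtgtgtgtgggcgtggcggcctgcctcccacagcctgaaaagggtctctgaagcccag
Adgrg1, downstream start: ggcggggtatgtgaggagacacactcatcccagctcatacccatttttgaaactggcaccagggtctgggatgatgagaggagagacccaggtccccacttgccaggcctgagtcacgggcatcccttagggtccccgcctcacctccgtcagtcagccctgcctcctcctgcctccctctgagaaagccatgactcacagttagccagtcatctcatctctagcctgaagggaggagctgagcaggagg
Adgrg3: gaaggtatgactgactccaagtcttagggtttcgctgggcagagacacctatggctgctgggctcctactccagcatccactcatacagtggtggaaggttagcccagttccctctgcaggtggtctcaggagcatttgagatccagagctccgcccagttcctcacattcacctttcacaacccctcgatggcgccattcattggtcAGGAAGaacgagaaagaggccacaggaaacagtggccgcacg
Neither Adgrg1 window held any of these letters, and Adgrg3 held 1 ETS match 42 bases before its start. Nothing about the factors follows from a match or its absence. Their genes were measured too: of 8 stem cell transcription factors known to bind at Adgrg1, 6 were tested and 0 passed without the block (edgeR, 1 at an unadjusted p under 0.05, and 0 with DESeq2). The most abundant, the ETS factor Fli1, had 633 ± 84.4 CPM without and 855 ± 115 with DOX (SD, n = 3 each), a log2 fold change of 0.45 (SE 0.14, adjusted p = 0.143, and 0.0314 with the clone as a block, edgeR). Runx1 had 0.37 (SE 0.21, adjusted p = 0.346, and 0.0571 with the block, edgeR). The median of the 6 was 0.29, and that of all genes 0.01.

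Adgre1, the F4/80 macrophage marker (chromosome 17, 57358691 to 57483527, plus strand), differed among the clones. It had 1.97, 1.46 and 0.785 CPM without DOX and 9.19, 3.66 and 0.787 with DOX in clones 1, 2 and 3 (96, 64 and 31 counts, then 440, 144 and 31). By clone the log2 changes were 2.19, 1.29 and 0.00, so clone 3 was at the same level in both, and the groups overlapped. The log2 fold change was 1.71 (SE 0.75), and 1.38 (SE 0.38) with the clone as a block. With 1 clone left out it ran from 0.98 (without clone 1) to 1.93 (without clone 3). In MLL-AF9-ieGFP it had 1.56 and 0.809 CPM without and 1.02 and 0.870 with DOX, a log2 fold change of -0.34 (SE 0.86, adjusted p = 1, edgeR).

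Of 9 monocyte and macrophage markers, 6 were measured and C1qa, a complement gene of macrophages, had 0 counts in every library. C1qb had 6 and 3 counts in DOX-treated clones 1 and 2 and 0 in all others. Csf1r, the receptor of macrophage growth factor, had 246, 101 and 59 counts with DOX against 75, 55 and 33 without, and Mertk, a receptor for the uptake of dying cells, 14, 32 and 62 against 50, 67 and 54. So Csf1r was higher with DOX in each clone, also in clone 3, where Adgre1 was level, and Mertk was lower in clones 1 and 2. Cd68, Fcgr1, Cx3cr1 and Vcam1 had log2 fold changes of 0.71, 1.29, 0.56 and -0.08 (edgeR). The summed level of the list, 77.8 to 101 CPM without and 61.8 to 124 with DOX, was set mainly by Vcam1 and did not follow Adgre1. Of the 6, 0 passed without the block (edgeR, 3 at an unadjusted p under 0.05, and 2 with DESeq2), and Csf1r passed with it (adjusted p = 0.162 without and 0.0278 with the block, edgeR), where 12.4% of all genes did. The median log2 fold change of the 6 was 0.63.

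Adgre5 (CD97, chromosome 8, 83723251 to 83741326, minus strand) was close to level. It had 45.7, 47.1 and 57.2 CPM in the untreated and 37.8, 44.3 and 53.5 CPM in the DOX-treated clones, with overlapping groups and a log2 fold change of -0.13 (SE 0.15). Other genes, Ddx39 among them, cover 20.1% of its body, and their reads may be counted with it or lost from it. In MLL-AF9-ieGFP it had 41.8 and 49.2 CPM without and 39.0 and 48.6 with DOX, a log2 fold change of -0.06 with DOX (SE 0.18, adjusted p = 1, edgeR). Both 72 h libraries lay above both 48 h libraries. The log2 fold change with time was 0.28 (SE 0.17, adjusted p = 0.9997) over 10 libraries, where 0 of 20269 genes passed (0%, 770 at an unadjusted p under 0.05, and 0 with DESeq2). In the fit of the 4 MLL-AF9-ieGFP libraries alone it was 0.28 (SE 0.07, adjusted p = 0.0013, edgeR), and 2512 genes passed. That fit takes its spread from time points of 1 clone. Among the MLL-AF9-i139 clones, clone 3, whose treated culture was the 72 h one, had the highest level with and without DOX.

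Adgrl2 (latrophilin 2, chromosome 3, 148815583 to 148990555, minus strand), a receptor of teneurins and FLRT proteins, differed between clones, and its groups with and without DOX overlapped. It had 7.91, 1.81 and 0.456 CPM without and 7.08, 2.54 and 0.406 with DOX in clones 1, 2 and 3. Clone 1 was at 17.4 times the level of clone 3 both without and with DOX. MLL-AF9-ieGFP was near clone 1, with 8.63 and 7.94 CPM without and 8.79 and 7.81 with DOX. The log2 fold change with DOX was 0.00 (SE 1.05) in MLL-AF9-i139 without the block and 0.10 (SE 0.21) with it. In MLL-AF9-ieGFP it was also 0.00 (SE 1.08, adjusted p = 1, edgeR), and -0.002 (SE 0.16) with the 4 libraries of this clone alone. With 1 of the clones left out, it ran from -0.14 (without clone 2) to 0.38 (without clone 1) in MLL-AF9-i139.

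The difference between the 3 clones, with DOX as a covariate, was tested with edgeR's F test over the 6 MLL-AF9-i139 libraries. The genes were chosen on these same libraries, and the spread in this test is how the DOX difference varies among clones. Its p-values for the members are therefore not independent of that choice. This test was added after the values had been seen. It called 421 of 19223 genes (2.19%) and 1 of the 5 members, Adgrl2 (adjusted p = 0.0023, edgeR). For Adgre1 the adjusted p was 0.0922, for Adgre5 0.168, for Adgrg1 0.390 and for Adgrg3 0.578 (edgeR). Adgre1 passed with DESeq2 (adjusted p = 0.00025) and without the filter on low counts (0.0105, edgeR). The test asks whether clones differ in their mean over both treatments, so the weaker difference of Adgrg1 with DOX in clone 3 is not what it measures.

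Set side by side, the untreated clones had the levels Adgrg3 over Adgre5 over Adgrg1 over Adgre1 and Adgrl2, at 45.1 ± 2.89, 13.3 ± 1.67, 0.830 ± 0.0678, 0.435 ± 0.184 and 0.239 ± 0.280 CPM per kilobase of exon (SD, n = 3). The ranges of Adgre1 and Adgrl2 overlap, and their order turns when the length of the gene body is used. With DOX, Adgrg1 reached 14.6 ± 10.3 CPM per kilobase of exon against 12.0 ± 2.09 of Adgre5, from 2.76 in clone 3 to 21.5 in clone 2, so that these neighbours in the order do not differ beyond their spread. In untreated MLL-AF9-ieGFP the order was Adgrg3 (42.0), Adgre5 (12.1), Adgrg1 (1.17), Adgrl2 (0.584) and Adgre1 (0.366), and with DOX it was the same (44.5, 11.7, 1.24, 0.585 and 0.292). Adgrl4 (ELTD1, chromosome 3, 151437887 to 151545086), a receptor of endothelial cells, was not measured, with at most 3 counts in a library.

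The test of DOX in MLL-AF9-ieGFP called 0 of 20269 genes (0%, 259 at an unadjusted p under 0.05, and 1 with DESeq2), and so 0 of the 6 members tested. Of the 5 members with more than 3 counts in some library, the largest change in either direction was that of Adgre1. An adjusted p of 1 does not show that DOX leaves these genes unchanged. Standard errors in this fit ran from 0.13 for Adgrg3 to 1.08 for Adgrl2 on the log2 scale. Its spread is shared over all 10 libraries and takes in differences between the MLL-AF9-i139 clones. With the 4 MLL-AF9-ieGFP libraries alone, which are time points of 1 clone, the standard errors ran from 0.07 (Adgrg3) to 0.37 (Adgre1).

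Of the 23 other adhesion GPCR genes of the mouse in the list, 18 were measured and 7 had a mean of at least 1 CPM. In MLL-AF9-i139 16 were tested, and 0 passed without the block (edgeR, 0 at an unadjusted p under 0.05, and 0 with DESeq2) or with it. Their median log2 fold change was -0.02, against 0.67 for the 5 members, which were chosen partly for theirs. The most abundant was Adgrb1, a receptor for phosphatidylserine on dying cells, with 67.2 ± 6.71 CPM without and 65.0 ± 8.60 with DOX (SD, n = 3) and a log2 fold change of -0.03 (SE 0.13, adjusted p = 0.914, edgeR). The smallest unadjusted p belonged to the cadherin-like Celsr3 (log2 fold change -0.35, SE 0.19, adjusted p = 0.329) and to Adgrf3 (-0.45, SE 0.26, adjusted p = 0.365, edgeR). Differences between clones were called for 2 of the 16, Adgra3 (adjusted p = 0.0455) and Adgrl1 (0.0245), which are named after their values were seen (edgeR). Over all genes that test called 421 of 19223 (2.19%).

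Around the receptors, the ligands and surface partners came first. Of 17 such genes 13 were tested, and 0 passed without the block (edgeR, 3 at an unadjusted p under 0.05, and 2 with DESeq2). With the block 3 passed, 2 of them higher, where 12.4% of all genes did. The median log2 fold change of the 13 was 0.36. Tgm2, which encodes transglutaminase 2, had 3.90 ± 0.885 CPM without and 10.3 ± 3.64 with DOX (SD, n = 3), a log2 fold change of 1.42 (SE 0.30, adjusted p = 0.0959, and 0.0220 with the clone as a block, edgeR), and 1.70, 1.598 and 0.79 by clone. Cd81, the tetraspanin partner of Adgrg1, had 66.8 ± 4.94 CPM without and 111 ± 16.3 with DOX, a log2 fold change of 0.75 (SE 0.13, adjusted p = 0.0865, and 0.0225 with the block, edgeR). Itgb1, the integrin beta 1 chain and the most abundant gene of the list, was lower, at -0.36 (SE 0.10, adjusted p = 0.133, and 0.0380 with the block, edgeR). In MLL-AF9-ieGFP the log2 fold changes of Tgm2, Cd81 and Itgb1 were -0.39, 0.12 and -0.01. That of Tgm2 at 72 h against 48 h was 1.38 (SE 0.37, unadjusted p = 0.0044, adjusted p = 0.9997, edgeR). For time, 3 of the 65 genes tested from all these lists had an unadjusted p under 0.05, against 770 of 20269 genes, and 0 passed (edgeR). The culture time of the untreated MLL-AF9-i139 clones is not given, and its part in the Tgm2 difference was not tested.

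Downstream of the receptor, 0 of 10 genes for G proteins, exchange factors and kinases passed without (edgeR, 1 at an unadjusted p under 0.05, and 0 with DESeq2) or with the block, with a median of 0.08. Arhgef1, a guanine nucleotide exchange factor driven by G13, had 193 ± 9.18 CPM without and 241 ± 38.6 with DOX (log2 fold change 0.34, SE 0.13, adjusted p = 0.198, edgeR). Gna12, which encodes the G12 subunit, had 0.13 (SE 0.09, adjusted p = 0.462), and Gnaq, the most abundant, 0.07 (SE 0.13, adjusted p = 0.811, edgeR). Of the 7 receptor kinases and arrestins, which switch GPCRs off, 0 passed without the block (edgeR, 3 at an unadjusted p under 0.05, and 2 with DESeq2). Arrb2 and Grk2 passed with it, where 12.4% of all genes did, and the median over the list was 0.38. Arrb2 (beta-arrestin 2) had 75.8 ± 5.60 CPM without and 141 ± 30.8 with DOX, a log2 fold change of 0.91 (SE 0.16, adjusted p = 0.0882, and 0.0152 with the block, edgeR). Grk2, the most abundant, had 273 ± 14.6 and 397 ± 57.6 CPM, a log2 fold change of 0.55 (SE 0.12, adjusted p = 0.104, and 0.0289 with the block, edgeR). In both genes each DOX-treated clone lay above each untreated one.

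Adgrg1 is 1 of several surface markers of leukemia stem cells, and 12 others were followed. Of the 11 tested 0 passed without the block (edgeR, 6 at an unadjusted p under 0.05, and 5 with DESeq2), and 6 passed with it, 5 of them higher and 1 lower, while the median of the list was 0.03. Cd33, a sialic acid-binding receptor of myeloid cells, had 29.3 ± 1.67 CPM without and 156 ± 93.3 with DOX (SD, n = 3), a log2 fold change of 2.44 (SE 0.47, adjusted p = 0.0955, and 0.0282 with the block, edgeR). By clone it was 2.68, 3.01 and 0.75, the same order of clone 3 below clones 1 and 2 as for Adgrg1. Cd82 had a log2 fold change of 1.18 (SE 0.26, adjusted p = 0.1002, and 0.0241 with the block), and Cd47, the most abundant, 0.63 (SE 0.17, adjusted p = 0.120, and 0.0248 with the block, edgeR). Named after their values were seen, Cd93 (1.04) and Cd34 (4.53) were also higher and passed with the block (adjusted p = 0.043 and 0.0304, edgeR). Cd34 was near the floor, with 37 counts over the 10 libraries, and Kit was level (0.03). The 1 gene that was lower, Clec12a, is named after its values were seen, with a log2 fold change of -0.97 (SE 0.26, adjusted p = 0.120, and 0.0343 with the block, edgeR). In MLL-AF9-ieGFP the log2 fold changes of Cd33, Cd82, Cd47 and Clec12a with DOX were -0.29, 0.08, 0.10 and -0.43 (edgeR). Clec12a was lower with DOX there at both times, by -0.48 at 48 h and -0.38 at 72 h. Over these lists together 0 of 63 genes passed without and 12 with the block, against 0.0624% and 12.4% of all genes.

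**Figure D4:**
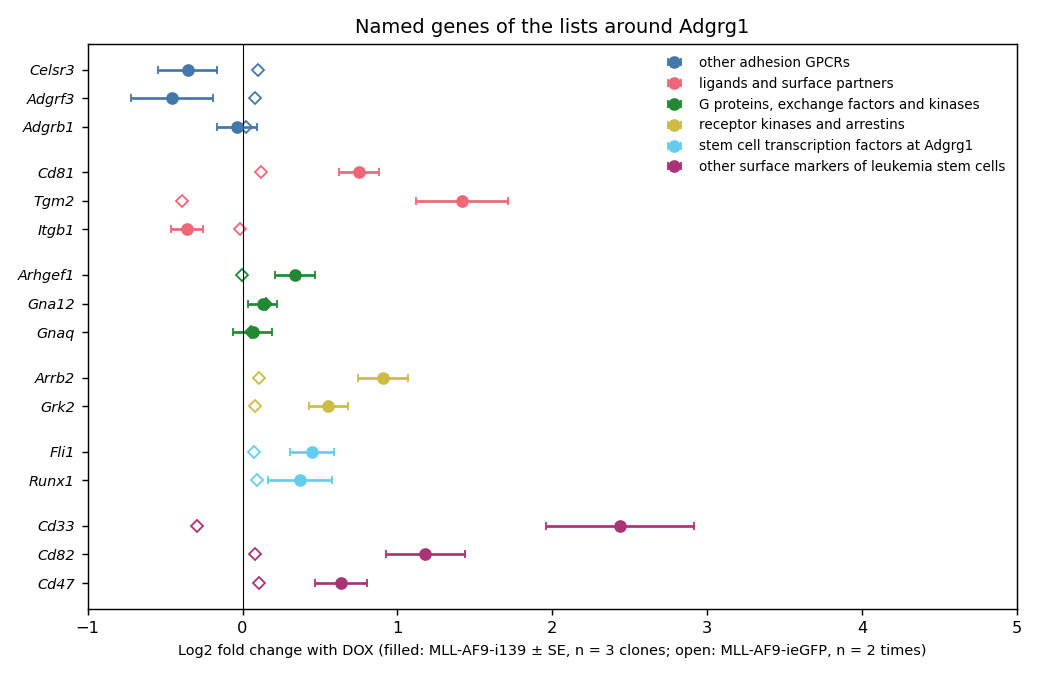
Log2 fold change with DOX (horizontal axis, edgeR) of the 16 named genes of 6 lists around Adgrg1, in MLL-AF9-i139 (filled circles ± standard error, n = 3 clones) and MLL-AF9-ieGFP (open diamonds, 2 time points of 1 clone). Cd33 (2.44) and Tgm2 (1.42) lie farthest to the right in MLL-AF9-i139, and at -0.29 and -0.39 in MLL-AF9-ieGFP.

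Adgrg1 also marks cytotoxic lymphocytes and platelets, so their genes were read beside it. Of 8 T and NK cell markers 4 were measured. Gzma had 0 counts, and Cd3e, Ncr1 and Klrb1c had at most 1 count in any library. Cd3d had 14, 7 and 9 counts without and 22, 18 and 14 with DOX, and Prf1, the perforin gene, 3, 4 and 1 without and 8, 4 and 4 with DOX. Nkg7, which gave most of the summed level of the list, had 932, 964 and 1642 counts without and 585, 527 and 2097 with DOX. Of the 4 tested 0 passed without the block (edgeR, 1 at an unadjusted p under 0.05, and 0 with DESeq2) or with it, and their median log2 fold change was 0.83. The part of such cells in the Adgrg1 level was not tested. Of 5 megakaryocyte markers 4 were measured, Pf4 had at most 1 count, and the sum was 1.51 to 2.73 CPM without and 2.13 to 3.78 with DOX. Itga2b, the most abundant of them, had 100, 59 and 68 counts without and 96, 85 and 47 with DOX. Its log2 fold change was 0.08 (SE 0.30, adjusted p = 0.908, edgeR). Gp9, the platelet glycoprotein IX, was under 1 CPM, with 10, 2 and 2 counts without and 30, 32 and 25 with DOX. It passed with the block, as 12.4% of all genes did, and 0 of the 4 passed without it (edgeR, 1 at an unadjusted p under 0.05, and 0 with DESeq2), where the adjusted p of Gp9 was 0.0934, against 0.0278 with the block. Among 5 eosinophil markers, Ccr3 had 0 counts, and the sum was at most 4.43 CPM. The mast cell and basophil list (6 markers, 4 of them at 0) summed to 8.08 to 10.4 CPM without and 13.8 to 15.8 with DOX in MLL-AF9-i139, from Mcpt8, which passed with the block (adjusted p = 0.0236, edgeR) and not without it (0.105).

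The genes whose levels were most like those of Adgrg1 were taken by Pearson's r of log2 CPM over the 10 libraries, among 11875 other genes with a mean of at least 1 CPM. The 5 highest were Dok2 (r = 0.992), D1Ertd622e (0.992), Gm32089 (0.991), Chic2 (0.990) and Gm43597 (0.990), and the lowest was Arl5c (-0.995). Since 3 DOX-treated MLL-AF9-i139 libraries hold most of the spread of Adgrg1, these values rest mainly on them, and they are a description. Dok2, which encodes an adaptor protein that dampens receptor tyrosine kinase signals, had 41.3 ± 4.11 CPM without and 108 ± 40.1 with DOX (SD, n = 3). Gm32089, with 0.0824 ± 0.0318 CPM without and 6.05 ± 4.70 with DOX, was near the level of 3 counts outside the DOX-treated MLL-AF9-i139 libraries and reached the mean of 1 CPM only through them. Arl5c, an ADP-ribosylation factor-like gene, was lower, with 29.4 ± 0.800 and 13.2 ± 6.40 CPM. Of the other members, Adgrg3 had an r of 0.954 with Adgrg1, at rank 319, Adgre1 0.784, Adgrl2 -0.01 and Adgre5 -0.42.

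**Figure D5:**
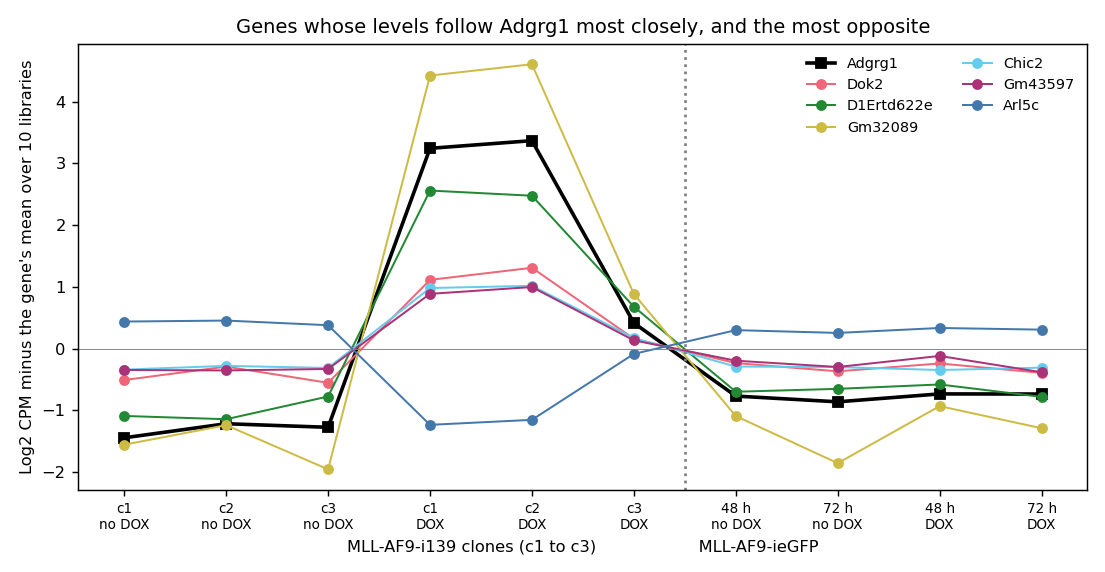
Log2 CPM minus the mean of each gene over the 10 libraries (vertical axis) for Adgrg1, the 5 genes most like it and the least like, Arl5c, with lines joining the libraries of a gene for the eye. In each of the 7 genes clone 3 with DOX (c3) lies between the untreated clones and clones 1 and 2 with DOX.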

How the data were processed

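RNA-seq read counts of 10 libraries of mouse MLL-AF9 cells (MLL-AF9-i139 and MLL-AF9-ieGFP, with and without DOX) were analysed. The authors depleted ribosomal RNA, mapped reads to GRCm38 with STAR (2.5.3e in the submitters' processing notes), counted them per gene with FeatureCounts (1.6.0) and deposited raw counts, neither normalized nor filtered. Settings for strand and for reads on 2 genes are not given in the sources used here. Of 2 deposited tables with equal values 1 was used, and 14 further columns of per-sample values were not. Symbols were matched for 52403 of 52550 gene identifiers. Positions and UTRs came from a later GENCODE release of the same build.

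Samples were grouped by their labels. Counts were normalized by TMM and tested with edgeR 4.0.16 (quasi-likelihood, R 4.3.3) over genes with at least 10 counts, with Benjamini-Hochberg adjustment and a threshold of 0.05: DOX in MLL-AF9-i139 over 6 libraries without a block, DOX and time in MLL-AF9-ieGFP over all 10. Printed CPM use the TMM factors of 10 libraries. For a single pair, the log2 change was taken between CPM values with 2 as the prior count. Clone numbers pair the MLL-AF9-i139 libraries, since both libraries of a number come from 1 clone. Deviations from group means correlated at 0.288 to 0.414 across genes for the same clone and at -0.315 to -0.044 for different clones. As deviations in a group sum to 0, positive values for the same clone force negative ones for different clones, which add no separate evidence. Alternatives were DESeq2 1.42.0, RLE size factors, other filters, the clone as a block, other sets of libraries and each library left out.

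The members and all gene lists were chosen with earlier results of these data known. Some items, a member among them, are not reported here. Named were all other measured members and, of each list, at most 4 genes called without the block or, where fewer than 2 were, the 2 with the smallest unadjusted p, and the most abundant, besides genes within 250 kb of Adgrg1 and those most like it. The scripts were tested on simulated data. Without a block, p-values in MLL-AF9-i139 measure the spread between these clones. With the clone as a block, and in the test between clones, they measure how the DOX difference varies among clones. In the tests of MLL-AF9-ieGFP the spread is shared over all 10 libraries, except in the fit of its 4 libraries alone.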

Additional observations from a re-analysis of the deposited data

How the results depend on the processing

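The number of genes called with DOX in MLL-AF9-i139 (12) was 562 without a filter on low counts, 2 with at least 10 counts in every library, 1234 with all 10 libraries in 1 fit, 1556 with DESeq2 and 2381 in the paired fit with the clone as a block, and ran from 0 (without clone 2) to 3981 (without clone 3), with 1 without clone 1. For the lists around Adgrg1 (0) these counts were 7, 0, 9, 9 and 12, and 0 to 16 with 1 clone left out. Counts in MLL-AF9-ieGFP were 1 for DOX without a filter or with DESeq2 in place of 0, and 2512 for time in its 4 libraries alone in place of 0. For differences between clones (421) they were 231 with at least 10 counts in every library, 1048 without a filter and 1177 with DESeq2. The cause of these shifts was not tested.

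The log2 fold change of Adgrg1 with DOX in MLL-AF9-i139 kept its direction in all 9 alternatives, from 3.78 (paired, with the block) to 4.67. In MLL-AF9-ieGFP the log2 fold change with DOX changed sign for 3 members, none of which passed: Adgrl2, at -0.006 with RLE and with DESeq2, -0.008 with at least 10 counts in every library and -0.002 in the 4 libraries alone, and from -0.077 to 0.084 with 1 library left out, Adgre1, from -0.716 to 0.218, and Adgre5, from -0.223 to 0.103. Over 95 alternative values of the 5 members for DOX and time, 1 passed, that of Adgre5 for time. The block changed no call of a member in MLL-AF9-ieGFP. Precision is limited by 3 clones, of which 1 was treated for longer, and by 1 control clone.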
